A study of Mus musculus with 16 samples.

Results

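Heat shock proteins and chaperonins are the protein-folding machines of the cell, and their transcripts were followed here in the cell bodies and axons of cultured mouse motoneurons with and without the RNA-binding protein hnRNP R. The members were the genes annotated as protein-coding whose symbols begin with Hsp90, Hspa and a number, Dnaja, Dnajb or Dnajc and a number, or Cct and a number, together with *Hsph1*, *Hspd1* and *Hspe1*. This rule gave 73 of the 46320 genes counted, of which 66 were among the 19964 genes expressed highly enough to be tested. Motoneurons of the lumbar spinal cord were enriched by panning with an antibody against p75NTR from mouse embryos at day 13 of gestation. They were either wildtype (+/+) or homozygous for a CRISPR/Cas9 deletion of the first exons of *Hnrnpr* in all cells of the animal (Hnrnpr-/-, here also -/-). The cells grew in microfluidic chambers whose channels let axons, but not cell bodies, enter a second compartment, so that each culture yields a somatodendritic and an axonal RNA sample. CNTF at 5 ng/ml was present on both sides and BDNF at 20 ng/ml only on the axonal side, so that the effects of BDNF and of the compartment cannot be told apart. There were 4 libraries in each of the 4 groups, 16 in all, with 22024900 to 34864200 counts per library.

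HSP70 proteins bind exposed hydrophobic stretches of unfolded proteins and release them in cycles of ATP hydrolysis. J-domain proteins, the DNAJ families, deliver the clients and start the cycle, while HSP110 proteins reset it by exchanging the nucleotide. HSP90 acts later on clients such as kinases and steroid receptors, and the chaperonins HSP60 of mitochondria and CCT of the cytosol enclose proteins in a barrel while they fold, with actin and tubulin as the best known clients of CCT. In neurons, chaperones also serve membrane traffic: auxilin, encoded by *Dnajc6*, uses HSC70 to strip clathrin from vesicles, and the cysteine string protein encoded by *Dnajc5* protects release proteins at synaptic vesicles.

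*Hnrnpr* itself matched the labels, with 119.98 to 422 CPM (counts per 1e6 counts of the library, scaled by TMM factors) in the 8 +/+ libraries and 0.545 to 1.16 CPM in the 8 Hnrnpr-/- libraries. Axonal libraries were made with more PCR cycles and at full kit volume, somatodendritic ones at a reduced volume, so that compartment and amplification cannot be told apart. Markers of the labelled cell type stood at uneven levels. In +/+ somatodendritic libraries *Nefh* had 40.4 to 99.9 CPM, *Slc18a3* 3.90 to 11.6, *Isl1* 3.89 to 8.03, *Slc5a7* 3.05 to 7.74, *Prph* 1.09 to 1.55 and *Chat* 0.657 to 1.31 CPM. *Mnx1* was at 0 in 15 of the 16 libraries and *Isl2* in 6. In +/+ axons against cell bodies, 3 of the 8 motoneuron markers, 6 of them tested, were lower and 0 higher, with summed levels of 53.4 to 129.8 CPM in somatodendritic and 7.70 to 33.7 CPM in axonal libraries. Of 7 markers of astrocytes or radial glia, 5 were higher in +/+ axons and 0 lower, with sums of 1061 to 1502 CPM and 3546 to 5881 CPM. Of 7 fibroblast or meningeal markers, 2 were higher and 0 lower, with sums of 60.5 to 409 CPM and 185 to 2386 CPM. Of 7 markers of oligodendroglia or Schwann cells, 6 of them tested, 1 was higher (203 to 849.7 and 201 to 1257 CPM), as was 1 of 5 microglial markers (6.71 to 24.2 and 11.2 to 64.3 CPM). Among 4 endothelial markers, 3 of them tested, 1 was higher and 1 lower (3.004 to 11.7 and 24.5 to 58.1 CPM), and *Cdh5* and *Cldn5* were at 0 in all 4 +/+ axonal libraries. Of 4 nuclear RNAs, 2 were higher and 1 lower (639 to 834 and 514 to 2545 CPM). In Hnrnpr-/- motoneurons 3 markers of astrocytes or radial glia were higher, with sums of 1040 to 2219 CPM in somatodendritic and 3224 to 5148 CPM in axonal libraries. There 2 motoneuron markers were lower (51.5 to 122 and 4.71 to 57.6 CPM) and 2 fibroblast or meningeal markers higher (98.3 to 1236 and 214 to 2175 CPM). Of the endothelial markers 1 was higher and 2 lower (6.41 to 26.5 and 21.9 to 68.5 CPM), of the nuclear RNAs 1 was higher and 1 lower (659 to 1137 and 611 to 801 CPM), and 1 marker each of oligodendroglia or Schwann cells (283 to 1033 and 253 to 1787 CPM) and of microglia (6.18 to 69.3 and 19.1 to 146 CPM) was higher. These markers moved with the compartment, and their part in the compartment results below was not tested. In such bulk RNA, fewer cells of a type and less RNA per cell cannot be told apart. The study describes the cultures as biological replicates, and neither it nor the labels say whether they came from separate animals, so that p-values measure the spread between these cultures.

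The first question was how the chaperone transcripts divide between axons and cell bodies. In +/+ motoneurons, 16 of the 66 members tested were higher in axons, 18 were lower and 32 did not pass the threshold of an adjusted p under 0.05 (edgeR quasi-likelihood test, Benjamini-Hochberg adjustment over all genes tested). The background over all genes was 30.1% higher and 27.4% lower, against 24.2% and 27.3% of the members. The 4 axonal and 4 somatodendritic libraries did not overlap for 35 members, and for 52.4% of all genes. The median log2 fold change of axonal against somatodendritic levels (the log2 change, given with its standard error, SE) was 0.10 over the members and 0.07 over all genes. Without TMM factors the median of all genes moved to 0.22 and that of the members to 0.25, and the division became 23 higher and 13 lower, against 33.8% and 23.6% of all genes. With protein-coding genes only it was 20 higher and 15 lower, against 32.4% and 27.4% of those genes. The members summed to 13063 ± 961 CPM (SD, n = 4) in +/+ cell bodies and 12837 ± 892 CPM in +/+ axons, and made up 1.14% to 1.62% of the counts of each of the 16 libraries. Their sum thus differed by less than the spread between libraries, while single members differed in both directions.

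**Figure D1:**
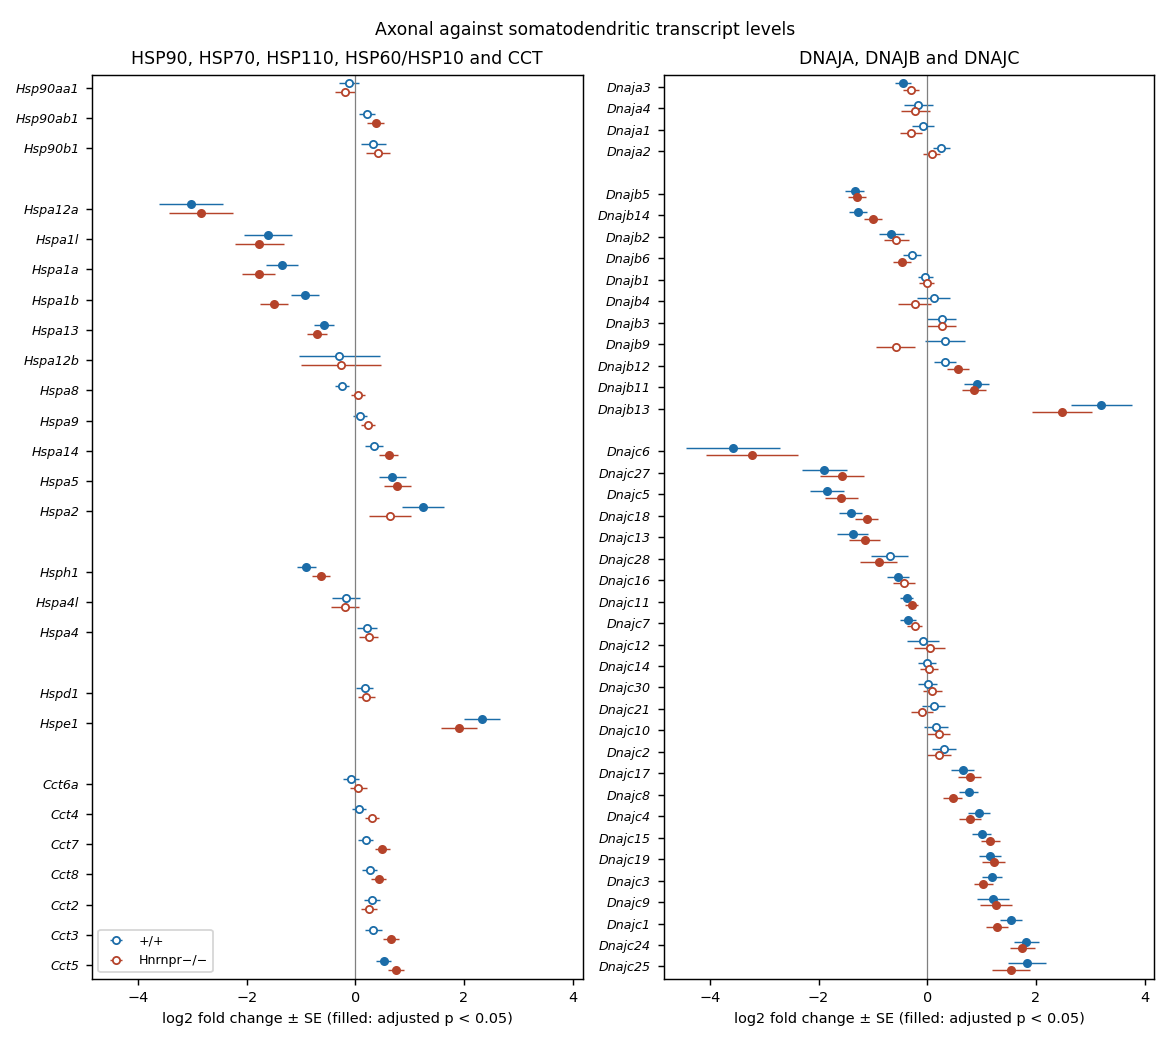
Log2 fold change of axonal against somatodendritic levels (x axis) with its SE for each of the 66 members tested, in +/+ (blue) and Hnrnpr-/- (red) motoneurons, ordered within families. Filled points passed an adjusted p under 0.05, as 16 higher and 18 lower members did in +/+, and the points run from *Dnajc6* at -3.57 to *Dnajb13* at 3.21.

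Of the 3 HSP90 genes, 0 passed in +/+ motoneurons (edgeR adjusted and unadjusted p, both over 0.05). *Hsp90ab1*, the constitutive cytosolic HSP90, had 1441, 1518, 1542 and 1660 CPM in the +/+ somatodendritic libraries and 1677, 1609, 2210 and 1663 CPM in the axonal ones. The groups overlapped slightly and the log2 change of 0.22 (SE 0.15, edgeR adjusted p = 0.226) did not pass, except without TMM factors. *Hsp90aa1*, the heat-inducible form, had 706 ± 102 CPM in cell bodies and 654 ± 172 CPM in axons, with a log2 change of -0.11 (SE 0.19). *Hsp90b1*, the HSP90 of the endoplasmic reticulum (ER), had 440 ± 97.8 and 554 ± 120 CPM, with a log2 change of 0.33 (SE 0.22). Without the 3 axonal libraries that stood apart in marker genes and correlations, chosen after the data were seen (+/+ replicates 2 and 3 and Hnrnpr-/- replicate 3), *Hsp90aa1* had a log2 change of -0.42 and an adjusted p of 0.0497. Rows of 2 pseudogenes that match the *Hsp90aa1* transcript by 92.8% and 98.3% held 31.8% as many counts as the gene. How many reads they share with it was not tested.

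Among the 11 HSP70 genes tested, 5 were lower in +/+ axons (45.5%) and 2 higher (18.2%), against 27.4% and 30.1% of all genes. *Hspa8*, the constitutive HSC70, was the most abundant member per kilobase (kb) of exon in every group, with 874 CPM per kb in +/+ cell bodies, ahead of *Hsp90ab1* with 614. It had 1724, 1804, 1829 and 2001 CPM in the somatodendritic libraries and 1713, 1287, 1643 and 1586 CPM in the axonal libraries. Although the groups did not overlap, the log2 change of -0.24 (SE 0.13, edgeR adjusted p = 0.123) did not pass. Rows of 9 pseudogenes that match its transcript by at least 90% held 46.3% as many counts as *Hspa8*, and adding them left the log2 change at -0.23. *Hspa9*, the mitochondrial HSP70 mortalin, had 386 ± 29.4 and 409 ± 42.7 CPM, a log2 change of 0.08 (SE 0.13).

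The heat-inducible *Hspa1a* and *Hspa1b* were both lower in axons. *Hspa1a*, on chromosome 17 from 35188335 to 35191132, had 39.5, 30.4, 29.0 and 23.2 CPM in the +/+ somatodendritic libraries and 11.9, 11.2, 9.55 and 15.3 CPM in the axonal libraries. Every axonal library lay below every somatodendritic one, with a log2 change of -1.35 (SE 0.30, edgeR adjusted p = 0.00161). *Hspa1b*, from 35175405 to 35178214 on the same strand, fell from 27.0 ± 6.29 to 14.2 ± 2.699 CPM, a log2 change of -0.92 (SE 0.26). Without the 3 axonal libraries that stood apart its adjusted p was 0.0545. The genes are near-copies, and their upstream sequences show how near. The 200 bases before the start of the canonical transcript (GENCODE vM39, GRCm39, minus strand, printed 5′ to 3′ along the gene) are given for both, with a CCAAT box read on the opposite strand in capitals. *Hspa1a* lies at chr17:35191133-35191332 and *Hspa1b* at chr17:35178215-35178414.
Hspa1a: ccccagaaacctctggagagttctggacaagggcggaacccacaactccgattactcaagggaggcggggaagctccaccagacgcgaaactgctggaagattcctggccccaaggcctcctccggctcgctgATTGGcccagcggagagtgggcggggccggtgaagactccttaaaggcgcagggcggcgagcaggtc
Hspa1b: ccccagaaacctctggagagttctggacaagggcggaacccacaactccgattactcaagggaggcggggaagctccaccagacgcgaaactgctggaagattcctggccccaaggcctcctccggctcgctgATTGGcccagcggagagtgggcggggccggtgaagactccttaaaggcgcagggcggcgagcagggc
They differ at 1 of the 200 bases. Of all 100-base windows of their transcripts, 47.1% of those of *Hspa1a* occur in *Hspa1b* and 49.9% the other way, so that the counting, which divides such reads between the genes, leaves their separate levels uncertain. Summed, they had a log2 change of -1.13 in +/+ and -1.64 in Hnrnpr-/- motoneurons, both past the threshold. *Hspa1l*, their neighbour known from testis, fell from 6.12 ± 0.272 to 2.01 ± 1.54 CPM, a log2 change of -1.61 that moved to -2.24 without +/+ axonal replicate 4.

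The largest fall among HSP70 genes was that of *Hspa12a*, a distant relative with an unusual ATPase domain, on chromosome 19 from 58784182 to 58932104. It had 286, 271, 261 and 195 CPM in the +/+ somatodendritic libraries and 38.9, 35.5, 6.60 and 43.7 CPM in the axonal libraries, a log2 change of -3.02 (SE 0.60, edgeR adjusted p = 0.000748). Every axonal library lay below every cell body library. *Hspa13*, an HSP70 of the ER, fell by 0.58 on the log2 scale. *Hspa2*, also known from testis, rose from 11.3 ± 4.32 to 27.0 ± 14.2 CPM, and its call was lost without +/+ axonal replicate 4 (adjusted p = 0.0539). Of the 3 HSP110 genes, *Hsph1*, the heat-inducible exchange factor, was lower in axons, with 175, 180, 177 and 227 CPM against 127, 75.7, 108 and 96.0 CPM and a log2 change of -0.90 (SE 0.17, edgeR adjusted p = 0.000505). *Hspa4* and *Hspa4l* had log2 changes of 0.21 and -0.17 (SEs 0.18 and 0.26) and did not pass.

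The mitochondrial chaperonin HSP60 and its lid HSP10 are encoded head to head by *Hspd1* on the minus strand and *Hspe1* on the plus strand of chromosome 1, and *Hspe1* passed the test between compartments while *Hspd1* did not. The sequence between the starts of their canonical transcripts is printed because it holds the heat shock element that both genes share, in capitals (chr1:55127184-55127290, GRCm39, plus strand, 107 bases, from the start of *Hspd1* on the left to that of *Hspe1* on the right).
Hspd1 to Hspe1: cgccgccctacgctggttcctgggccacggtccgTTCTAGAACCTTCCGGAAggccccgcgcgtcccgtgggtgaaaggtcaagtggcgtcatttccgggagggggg
The motif searched, on either strand, was GAA, any 2 bases, TTC, any 2 bases and GAA, and the capitals span its 2 overlapping matches. Within 300 bases before the start it was found in 2 of the 73 members, *Hspd1* and *Hspe1*, and in 105 of 21738 protein-coding promoters (0.483%). The matches of both genes lie in this same stretch. Only exact matches were counted, so the search does not show whether other members hold elements with a mismatch. *Hspd1* had 174, 240, 273 and 247 CPM in +/+ somatodendritic and 249, 249, 296 and 258 CPM in axonal libraries. These values overlapped, and the log2 change of 0.17 (SE 0.16, edgeR adjusted p = 0.374) did not pass. *Hspe1* had 18.5, 18.7, 23.2 and 21.3 CPM in somatodendritic and 65.3, 187, 107 and 53.1 CPM in axonal libraries. Here the lowest axonal library was well above the highest somatodendritic one, with a log2 change of 2.34 (SE 0.33, edgeR adjusted p = 8.39e-05). Without the 3 axonal libraries that stood apart it was 1.51 (adjusted p = 0.000296). Per kb of exon, *Hspe1* stood at 0.263 to 0.358 of the level of *Hspd1* in the 4 somatodendritic libraries and at 0.695 to 2.53 of it in the 4 axonal libraries. In Hnrnpr-/- motoneurons the same ratio was 0.205 to 0.282 in cell bodies and 0.671 to 1.04 in axons. The rows of both genes overlap by 96 bases on opposite strands, and the library kit does not mark strand, so that reads there cannot be assigned to one gene.

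**Figure D2:**
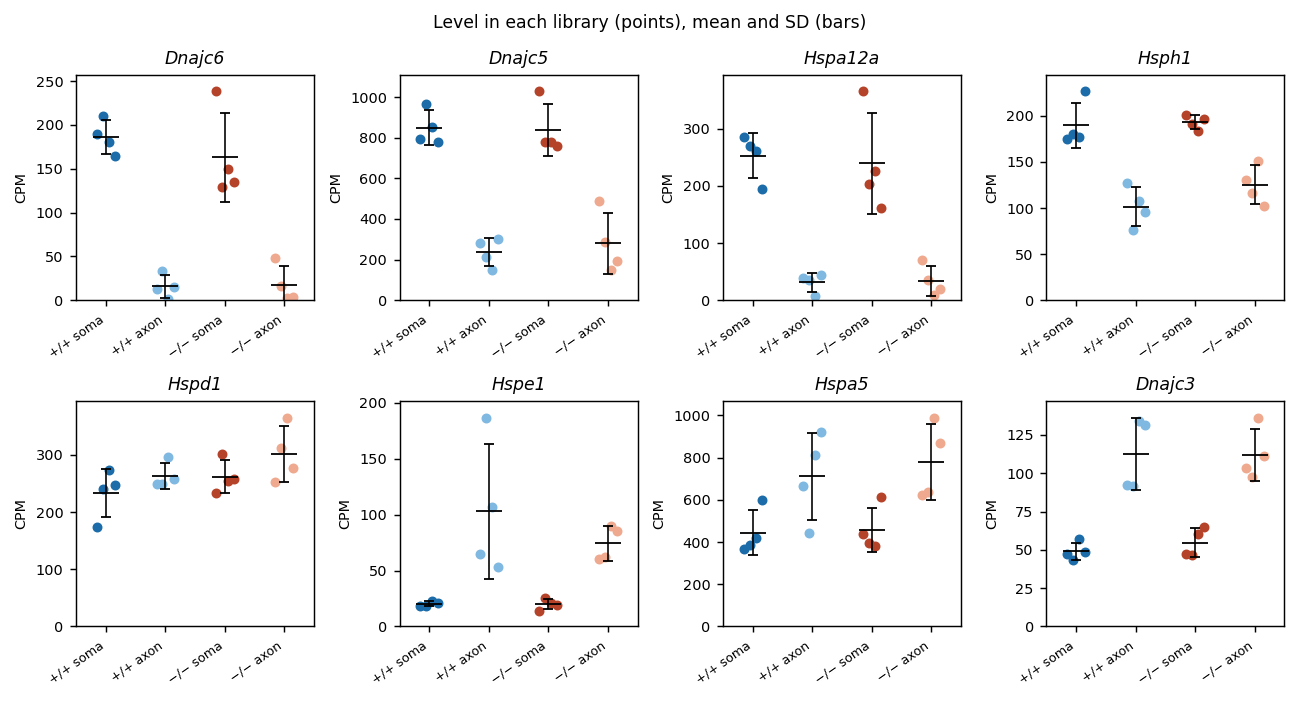
Level in CPM (y axis, from 0) of 8 members in each library (points) of the 4 groups, with mean and SD (bars, n = 4). *Dnajc6*, *Dnajc5*, *Hspa12a* and *Hsph1* lie lower in axons, *Hspe1* and *Dnajc3* lie higher without overlap, *Hspa5* overlaps in +/+, and *Hspd1* overlaps between compartments.

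The 7 expressed subunits of the cytosolic chaperonin CCT in the member list had small differences, and 6 of the 7 log2 changes were above 0 in +/+. *Cct5* was the 1 that passed the test. It had 355, 362, 387 and 402 CPM in cell bodies and 565, 421, 653 and 518 CPM in axons, without overlap, and a log2 change of 0.52 (SE 0.14, edgeR adjusted p = 0.00691). The log2 changes of *Cct2*, *Cct3*, *Cct4*, *Cct7* and *Cct8* were 0.31, 0.33, 0.07, 0.19 and 0.27, and that of *Cct6a* was -0.08, with SEs of 0.13 to 0.15. *Cct2* and *Cct3* passed in both DESeq2 fits, and *Cct2*, *Cct3*, *Cct7* and *Cct8* without TMM factors. *Tcp1*, which encodes the remaining subunit of the ring but carries another name, had 313 and 372 CPM and a log2 change of 0.25 (SE 0.16), which did not pass. Per kb of exon the subunits ran from 82.1 CPM for *Cct2* to 251 CPM for *Cct7* in +/+ cell bodies. *Cct6b* and *Cct8l1*, relatives expressed in testis, had 94 and 17 counts over all 16 libraries and were not tested.

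**Figure D3:**
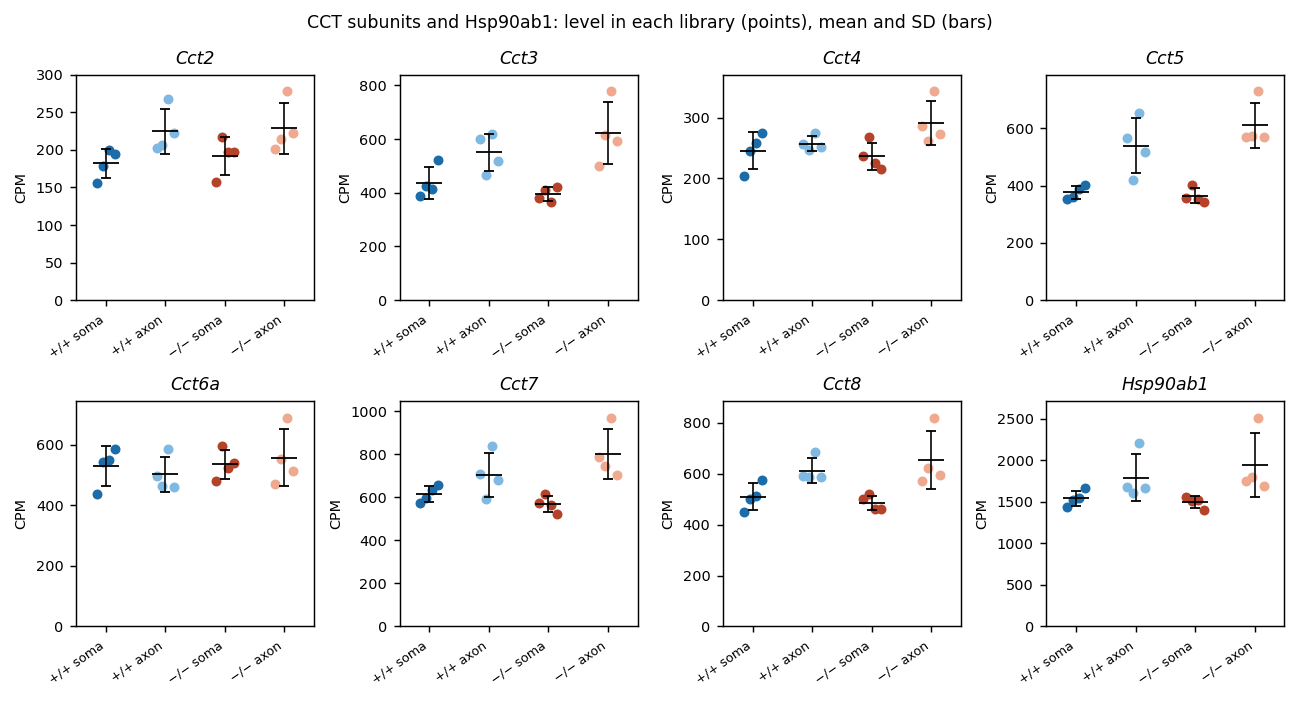
Level in CPM (y axis, from 0) of 7 CCT subunits and *Hsp90ab1* in each library (points) of the 4 groups, with mean and SD (bars, n = 4). Most subunits lie slightly higher in axons, and axonal replicate 3 holds the highest axonal point of either genotype in each panel, such as 2210 and 2512 CPM for *Hsp90ab1*.

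Over all J-domain genes the summed level was 3309 to 3736 CPM in +/+ cell bodies and 2617 to 2949 CPM in +/+ axons, without overlap. *Dnajc5*, at 849 and 237 CPM, and *Dnajc6*, at 186 and 15.6 CPM, had the largest falls in CPM of these genes, while the median log2 change was 0.12 over both the DNAJB and the DNAJC genes. Of the 25 DNAJC genes tested, 10 were higher in +/+ axons (40%) and 8 lower (32%), against 30.1% and 27.4% of all genes. Of the 11 DNAJB genes, 2 were higher (18.2%) and 3 lower (27.3%), and of the 4 DNAJA genes 1 was lower (25%). The members were also grouped by the place of the protein, after the values were seen. All 4 tested members placed in vesicle traffic were lower in axons of both genotypes, against 27.4% (+/+) and 26.8% (Hnrnpr-/-) of all genes. Since the values were known when the group was formed, this count only describes the 4 genes. *Dnajc6*, on chromosome 4 from 101353845 to 101499996, had 190, 210, 180 and 164 CPM in +/+ somatodendritic and 12.5, 32.7, 1.85 and 15.5 CPM in axonal libraries. Its log2 change of -3.57 (SE 0.87, edgeR adjusted p = 0.00296) was the lowest of the 66 members, and moved to -4.23 without +/+ axonal replicate 2. *Dnajc5*, on chromosome 2 from 181162141 to 181194679, had 796, 968, 853 and 780 CPM in cell bodies and 282, 215, 149.8 and 301 CPM in axons, a log2 change of -1.84 (SE 0.31). At 237 CPM its transcript was still among the more abundant members in axons. *Dnajc13*, which encodes the endosomal protein RME-8, fell by 1.37 and *Dnajc27*, which encodes a Rab-like GTPase with a J domain, by 1.90 on the log2 scale. The testis forms *Dnajc5b* and *Dnajc5g* were at 0 counts in every library after rounding, *Dnajc5b* with a fraction of a count in 1.

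Among the 13 members tested that act at the ER, 4 were higher in +/+ axons and 4 lower (30.8% each). These shares are near the 30.1% and 27.4% of all genes. *Hspa5*, the ER HSP70 BiP, on chromosome 2 from 34662102 to 34666541, had 368, 388, 420 and 601 CPM in somatodendritic and 668, 444, 811 and 923 CPM in axonal libraries. The groups overlapped, and the log2 change of 0.68 (SE 0.25, edgeR adjusted p = 0.0287) was lost when any of +/+ somatodendritic replicates 1, 2 or 3 or axonal replicates 3 or 4 was left out (adjusted p up to 0.0920). *Dnajb11*, which encodes a lumenal partner of BiP, rose from 89.6 ± 22.8 to 169 ± 40.7 CPM. *Dnajc3*, which encodes p58IPK, another lumenal partner, had 47.4, 43.7, 56.8 and 48.4 CPM in cell bodies and 92.0, 91.8, 134 and 131 CPM in axons, a log2 change of 1.19 (SE 0.18, edgeR adjusted p = 0.000116). *Dnajc1* rose from 10.9 ± 2.01 to 31.8 ± 4.46 CPM. The J proteins of the ER membrane encoded by *Dnajb14* and *Dnajc18* fell by 1.27 and 1.41 on the log2 scale. *Dnajc16* fell by 0.54, a call lost with the culture as a block (edgeR adjusted p = 0.0590). The span of *Mllt10* overlaps that of *Dnajc1* on the opposite strand over 6757 bases, introns included, and its row had a log2 change of 0.07. The span of *Rabepk* overlaps that of *Hspa5* on the opposite strand over 3596 bases, introns included, and its row, with 36.2% as many counts, had a log2 change of 0.62.

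*Hspa5*, *Dnajc3* and *Hsp90b1* were the 3 of 73 members with an ER stress response element (CCAAT, any 9 bases and CCACG, on either strand) in the 300 bases before the start, against 25 of 21738 promoters (0.115%). The first bases of this motif are also a CCAAT box, which 34 of the 73 members (46.58%) and 40.445% of all promoters hold. The 200 bases before each start are printed along the gene with the element in capitals, for *Hspa5* at chr2:34661904-34662103 (plus strand), *Dnajc3* at chr14:119175145-119175344 (plus strand) and *Hsp90b1* at chr10:86541379-86541578 (minus strand, 2 elements in opposite orientation).
Hspa5: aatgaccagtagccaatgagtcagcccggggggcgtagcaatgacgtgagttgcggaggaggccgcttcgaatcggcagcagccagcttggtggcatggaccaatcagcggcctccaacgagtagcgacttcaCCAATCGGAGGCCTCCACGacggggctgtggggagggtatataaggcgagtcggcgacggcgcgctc
Dnajc3: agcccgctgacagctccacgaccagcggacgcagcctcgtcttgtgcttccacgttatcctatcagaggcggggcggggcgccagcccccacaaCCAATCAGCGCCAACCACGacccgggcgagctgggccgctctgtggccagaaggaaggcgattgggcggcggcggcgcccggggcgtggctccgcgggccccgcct
Hsp90b1: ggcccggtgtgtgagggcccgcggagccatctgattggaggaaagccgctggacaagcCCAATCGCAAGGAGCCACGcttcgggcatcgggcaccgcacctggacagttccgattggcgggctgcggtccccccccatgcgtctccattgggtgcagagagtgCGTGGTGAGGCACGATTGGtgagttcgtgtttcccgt
In +/+ axons *Hspa5* and *Dnajc3* were called higher, while *Hsp90b1* was not called.

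Of the 9 members of mitochondria, 4 were higher in +/+ axons (44.4%) and 2 lower (22.2%), against 30.1% and 27.4% of all genes. *Dnajc15* and *Dnajc19*, which encode J proteins of the import motor at the inner membrane, rose from 16.2 ± 1.94 to 32.5 ± 7.08 CPM and from 17.0 ± 2.21 to 37.9 ± 10.8 CPM, log2 changes of 1.00 and 1.16. *Fxr1* lies opposite *Dnajc19*, and its row had a log2 change of 0.97. *Dnajc4* rose from 5.84 ± 0.921 to 11.3 ± 0.836 CPM. *Dnaja3* and *Dnajc11* fell by 0.44 and 0.38 on the log2 scale. The calls of *Dnaja3*, *Dnajb2*, *Dnajc7*, *Dnajc16* and *Dnajc17* in +/+ were lost when single libraries were left out, in 2, 2, 7, 4 and 1 of 16 fits (adjusted p up to 0.0586, 0.0593, 0.154, 0.0820 and 0.0523 from edgeR). Those of *Dnaja3*, *Dnajc7*, *Dnajc11* and *Dnajc16* were also lost without TMM factors and without a filter on expression, and that of *Dnajb2* without TMM factors. Outside these places, *Dnajc24*, needed for diphthamide synthesis, had 5.79, 3.83, 4.68 and 4.22 CPM in cell bodies and 16.9, 14.6, 20.7 and 13.6 CPM in axons, a log2 change of 1.83 (SE 0.23, edgeR adjusted p = 4.57e-05). *Dnajc9*, which encodes a histone co-chaperone, rose by a log2 change of 1.21, and *Dnajc8*, which encodes a protein of the splicing machinery, by 0.76. *Dnajb13*, which encodes a radial spoke protein of motile cilia, had 1.39, 0.810, 1.28 and 0.986 CPM in cell bodies and 9.13, 4.06, 14.2 and 14.2 CPM in axons, the highest log2 change of the members (3.21, SE 0.57). *Dnajc25* had a log2 change of 1.84 at 3.26 and 11.7 CPM. *Dnajb5* fell from 83.4 ± 13.5 to 33.02 ± 4.51 CPM. *Dnajb1*, the main partner of HSP70 in the heat response, had 84.8 ± 4.32 and 82.7 ± 12.7 CPM and did not pass (log2 change -0.04, SE 0.14). Members that the naming rule does not pick (among them *Dnajb1*, *Dnajc4*, *Dnajc25*, *Hspa13* and *Hspa1l*) were chosen after their values were seen. *Dnajb7*, *Dnajb8* and *Dnajc22* had 40, 0 and 57 counts over all libraries and were not tested.

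Exon length differed between the members called higher and lower. Across the 66 members, which are not independent replicates and share the same libraries, the Spearman correlation of combined exon length with the +/+ log2 change was -0.51, and it was -0.34 across all 19964 genes. In Hnrnpr-/- motoneurons the values were -0.51 and -0.38. The median exon length was 1939.5 bases for members called higher in +/+ axons, 5038 for those called lower and 2893 for the others. *Dnajc1*, with 15119 bases, was the longest member called higher. The part of transcript length in the compartment results was not tested.

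**Figure D4:**
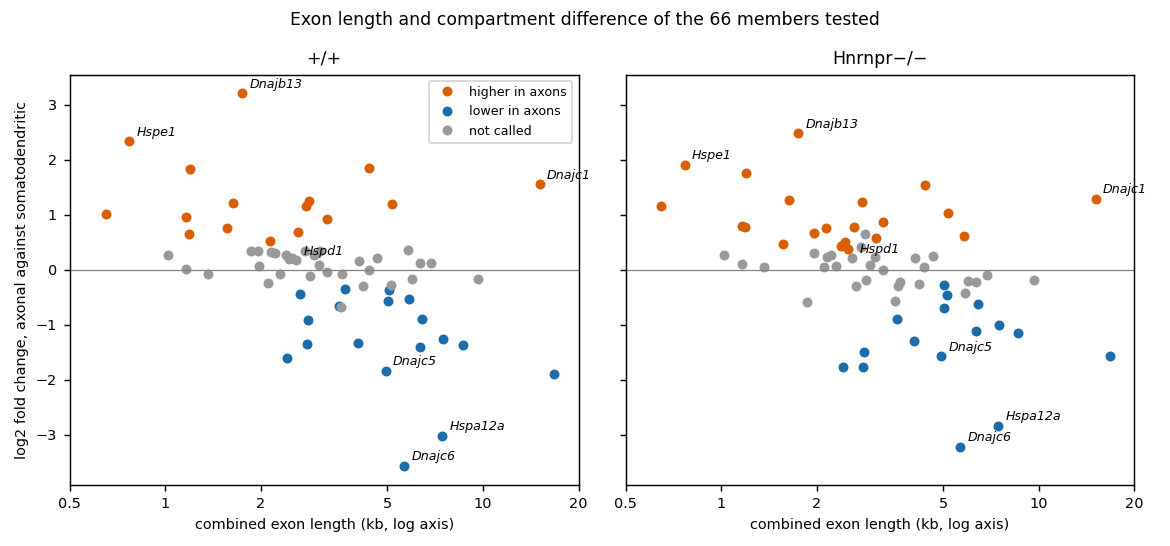
Combined exon length (x axis, kb, log scale) against the log2 change of axonal over somatodendritic levels (y axis) for the 66 members tested, in +/+ (left) and Hnrnpr-/- (right) motoneurons, coloured by call at an adjusted p under 0.05. Members called lower have a median length of 5038 bases and members called higher one of 1939.5 bases in +/+.

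Hnrnpr-/- motoneurons gave the same comparison. Of the 66 members, 21 were higher in axons and 16 lower, against 27.5% and 26.8% of all genes, and 33 did not overlap, against 51.4% of all genes. The median log2 change was 0.07, and -0.0028 over all genes. Of the members called higher, 15 were called in both genotypes, which is 93.8% of the +/+ list and 71.4% of the Hnrnpr-/- list, against 83.2% and 91.1% over all genes. Of those called lower, 14 were called in both, or 77.8% and 87.5%, against 84.3% and 86.3% over all genes, and 0 members were called in opposite directions. *Hspe1* had 14.2, 25.2, 20.7 and 19.4 CPM in Hnrnpr-/- cell bodies and 60.1, 62.0, 90.0 and 85.6 CPM in axons, again without overlap (log2 change 1.91, SE 0.33). *Dnajc6* had 238, 129, 149.96 and 135 CPM in cell bodies and 47.8, 16.1, 1.98 and 3.81 CPM in axons, a log2 change of -3.22 (SE 0.85). This value moved to -4.48 without Hnrnpr-/- axonal replicate 1 and to -4.11 with the culture as a block. *Hspa1a*, *Hspa1b* and *Hsph1* fell, with log2 changes of -1.78, -1.499 and -0.63.

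Among the CCT subunits in the member list, *Cct3*, *Cct5*, *Cct7* and *Cct8* passed in Hnrnpr-/- motoneurons, with log2 changes of 0.66, 0.75, 0.49 and 0.43 (SEs 0.14 to 0.15). *Tcp1*, outside that list, had 311 ± 15.6 CPM in Hnrnpr-/- cell bodies and 428 ± 94.6 CPM in axons, also higher and without overlap. *Cct3* had 380, 411, 364 and 421 CPM in cell bodies and 501, 615, 778 and 592 CPM in axons. The call of *Cct8* was lost without Hnrnpr-/- axonal replicate 3 (adjusted p = 0.0682) and with only the groups compared in the fit (0.0531). Without the 3 axonal libraries that stood apart, the calls of all 4 subunits stayed. *Hsp90ab1*, with 1497 ± 69.0 and 1937 ± 385 CPM, had a log2 change of 0.37 (SE 0.15, edgeR adjusted p = 0.0464). This call was lost with the culture as a block (adjusted p = 0.0801), with only the groups compared (0.0955), without a filter on expression (0.0915), without the 3 libraries (0.0921) and in 12 of the 16 fits that left out 1 library (up to 0.201). *Hspa14*, which encodes an HSP70 of the ribosome, rose by a log2 change of 0.61, and its partner *Dnajc2* had 0.22 (SE 0.22). The call of *Dnajc8* (log2 change 0.47) was lost without the 3 libraries (adjusted p = 0.0557) and without any of Hnrnpr-/- somatodendritic replicates 1, 3 or 4 or axonal replicates 3 or 4 (up to 0.0885). With the culture as a block, *Dnajb12*, *Dnajb6* and *Dnajc11* did not pass either (adjusted p = 0.0712, 0.0528 and 0.0854), *Dnajb2* did (0.0178), and in +/+ motoneurons *Dnajc7* did not (0.0692).

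The wider folding pathway was followed in 44 genes outside the member rule, all of them tested, among them HSF factors, co-chaperones, exchange factors, prefoldin and phosducin-like genes. In +/+ axons 17 were higher and 5 lower (30.1% and 27.4% of all genes), with a median log2 change of 0.34, against 0.07 over all genes. In Hnrnpr-/- axons 20 were higher and 3 lower (27.5% and 26.8% of all genes), with a median of 0.37, against -0.0028 over all genes. *Bag3*, a stress-inducible exchange factor of HSP70, rose from 2.87 to 28.3 CPM in +/+ axons, a log2 change of 3.30 (SE 0.47, edgeR adjusted p = 8.69e-05). *Sdf2l1*, a partner of BiP, rose by a log2 change of 2.33, and *Hscb*, a J protein of iron-sulfur cluster assembly, by 1.74. *Pfdn1* and *Pfdn6*, subunits of the prefoldin complex that hands actin and tubulin to CCT, rose by 1.36 and 1.14. In the other direction *Bag6* fell from 141 to 43.4 CPM (log2 change -1.70, SE 0.14), *Bag4* by 1.39, *Fkbp5* by 0.77, *Hyou1*, an exchange factor of BiP, by 0.76 and *Grpel2*, of mitochondria, by 0.67. The call of *Fkbp5* was lost without the 3 axonal libraries that stood apart (adjusted p = 0.0872).

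The second question was whether loss of hnRNP R changed chaperone transcripts. In axons 0 of 66 members passed the adjusted threshold in edgeR or in either DESeq2 fit, while 2 of all genes, 1 of them *Hnrnpr*, did in edgeR (0.01%), and 1 member passed an unadjusted p under 0.05, in edgeR and in either DESeq2 fit, against 3.88% of all genes. In cell bodies 0 members passed the adjusted (0.00501% of all genes) and 0 the unadjusted threshold (0.601%), in edgeR and in either DESeq2 fit. The difference of the genotype effect between compartments was past the adjusted threshold for 0 members (0% of all genes) and past the unadjusted one for 0 (1.33%), by edgeR and by either DESeq2 fit. The median log2 change of Hnrnpr-/- against +/+ was 0.05 in axons and -0.01 in cell bodies over the members, and 0.02 and 0.0017 over all genes.

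**Figure D5:**
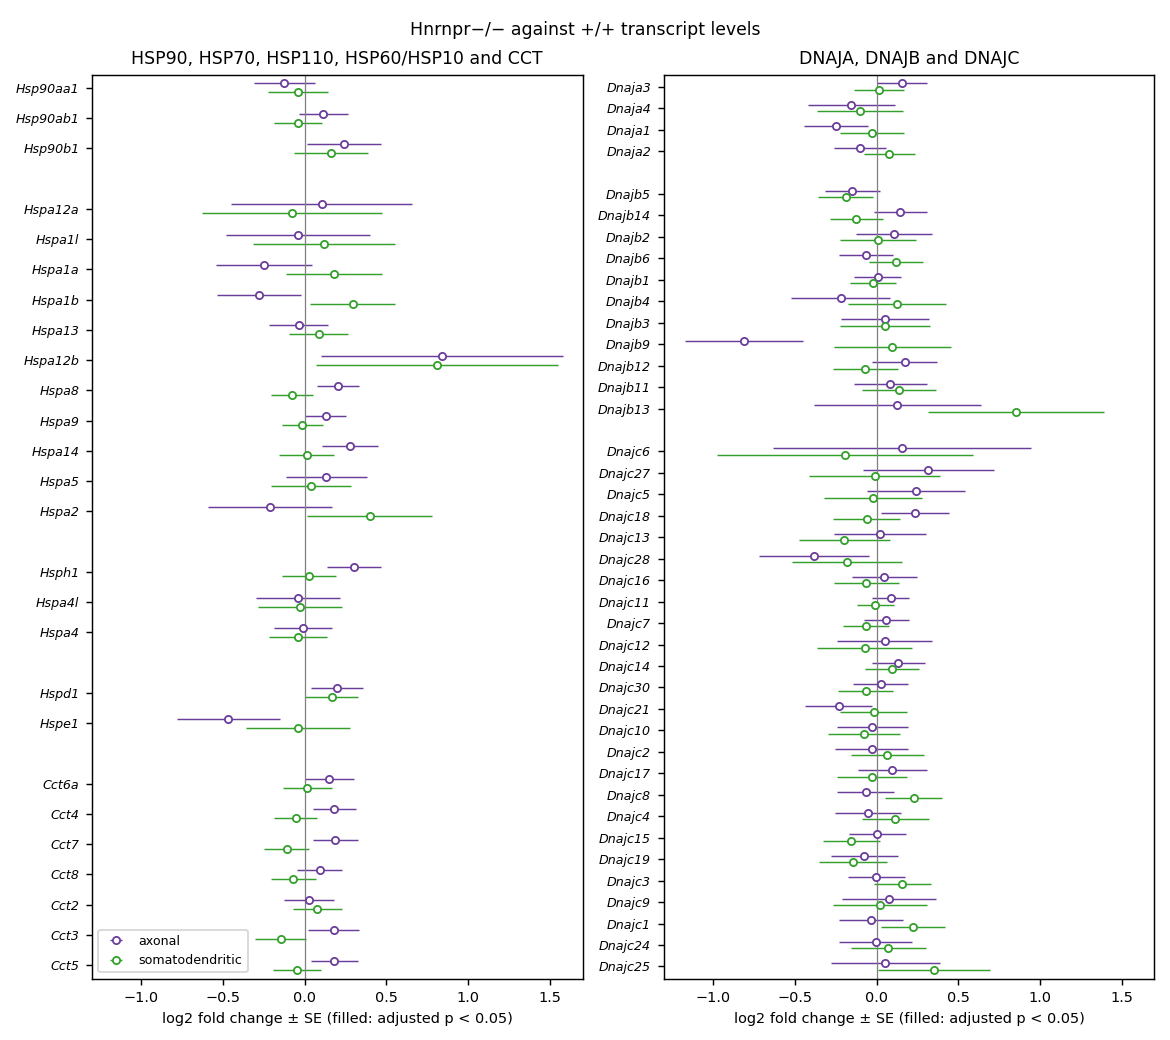
Log2 fold change of Hnrnpr-/- against +/+ levels (x axis) with its SE for each of the 66 members tested, in axonal (purple) and somatodendritic (green) libraries. All points are open, since 0 members passed an adjusted p under 0.05, and *Dnajb9* in axons lies lowest at -0.81.

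The member past the unadjusted threshold was *Dnajb9*, which encodes ERdj4, a J protein of ER-associated degradation. It had 8.11, 29.0, 7.80 and 11.8 CPM in +/+ axons and 10.2, 5.81, 6.78 and 9.55 CPM in Hnrnpr-/- axons, a log2 change of -0.81 (SE 0.36, edgeR unadjusted p = 0.0398, adjusted p = 1). The groups overlapped, and the high value was that of +/+ replicate 2, one of the libraries that stood apart. Without this library the log2 change was -0.20 and 0 members passed the unadjusted threshold. In cell bodies *Dnajb9* had 11.3 ± 2.03 and 12.1 ± 1.85 CPM, and the difference of its effects between the compartments was -0.91 (SE 0.51, edgeR unadjusted p = 0.0942). Next in axons were *Hsph1*, with 102 ± 21.5 CPM in +/+ and 125 ± 20.99 CPM in Hnrnpr-/- libraries (log2 change 0.30, unadjusted p = 0.0902 from edgeR), and *Hspa14* with 80.9 ± 9.39 and 98.0 ± 21.02 CPM (0.28, unadjusted p = 0.123). *Hspe1* had 103 ± 60.4 and 74.4 ± 15.6 CPM (log2 change -0.47, SE 0.31), and a log2 change of -0.013 without +/+ axonal replicate 2, which held the highest value.

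The log2 changes of the 7 CCT subunits in axons ran from 0.03 to 0.19, all above 0, and none passed. Their summed level was 3389 ± 398 CPM in +/+ and 3763 ± 570 CPM in Hnrnpr-/- axons, a difference within the spread between libraries. In cell bodies the log2 changes ran from -0.15 to 0.08. For the difference of the genotype effect between compartments, the smallest unadjusted p among the subunits was 0.149 from edgeR, for *Cct7*. *Hspa1b* and *Hspa8*, with differences of the genotype effect of -0.57 and 0.28 (SEs 0.37 and 0.18), had unadjusted p of 0.138 and 0.141 from edgeR. In cell bodies the members with the smallest p were *Dnajb13*, *Dnajc8* and *Dnajc1*, with log2 changes of 0.85, 0.23 and 0.22 (unadjusted p = 0.135, 0.213 and 0.272 from edgeR). *Dnajb13* had 1.39, 0.810, 1.28 and 0.986 CPM in +/+ and 0.288, 1.39, 3.14 and 3.30 CPM in Hnrnpr-/- cell bodies, with overlap.

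Among the 44 folding partners, 0 passed the adjusted threshold by genotype in axons or cell bodies, in edgeR or in either DESeq2 fit. Past an unadjusted p under 0.05 in edgeR were 3 in axons (6.82%, against 3.88% of all genes) and 0 in cell bodies (0.601% of all genes). The 3 are named here after their values were seen. In either DESeq2 fit 2 passed in axons, *Fkbp5* and *Trap1*, while *Vbp1* had no p. *Trap1*, which encodes the mitochondrial HSP90, had 109, 85.9, 93.7 and 101 CPM in +/+ axons and 115, 133, 131 and 128 CPM in Hnrnpr-/- axons, without overlap (log2 change 0.38, SE 0.14, edgeR unadjusted p = 0.0146, adjusted p = 1). *Fkbp5*, a co-chaperone of HSP90, had 31.4 ± 6.74 and 47.5 ± 8.87 CPM (log2 change 0.60, unadjusted p = 0.0175 from edgeR, adjusted p = 1). *Vbp1*, a prefoldin subunit, had 88.9, 654, 83.2 and 79.4 CPM in +/+ axons and 120, 68.0, 63.8 and 70.9 CPM in Hnrnpr-/- axons, so that its log2 change of -1.49 (edgeR unadjusted p = 0.0174, adjusted p = 1) became -0.056 without +/+ axonal replicate 2. Without the 3 axonal libraries that stood apart, 0 of the 44 passed the unadjusted threshold in axons, with unadjusted p of 0.154, 0.115 and 0.884 from edgeR for *Trap1*, *Fkbp5* and *Vbp1*.

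The libraries set how small a difference could be seen. Over members with a mean of at least 10 CPM, the median coefficient of variation between libraries was 12.3% and 13.4% in +/+ and Hnrnpr-/- cell bodies and 20.9% and 19.3% in axons, against 11.5%, 13.99%, 27.9% and 24.6% over all genes at that level. Among these members the spread in axons was widest for *Dnajc6*, at 81.9% in +/+ and 122% in Hnrnpr-/- axons, and the SE of its genotype difference in axons was 0.79 on the log2 scale.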

How the data were processed

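RNA of somatodendritic and axonal compartments of cultured mouse motoneurons was measured in 16 libraries made with a SMART-Seq v4 kit. The authors deposited estimated counts per gene that need not be whole, since reads that map to several places were divided between them. Per the labels and the study's methods, reads were aligned with STAR 2.7.2b to GRCm39 and counted over exons with featureCounts 1.6.4 in a strand-specific setting, although the kit does not mark strand. Reads of genes that overlap on opposite strands can therefore not be told apart, and the division of reads lowers genes with near-identical copies. The study's own test used DESeq2 1.24.0.

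Counts were rounded and fitted in edgeR 4.0.16 (limma 3.58.1, R 4.3.3) with filterByExpr, TMM factors and 1 mean per group over all 16 libraries. Quasi-likelihood tests were adjusted by Benjamini-Hochberg over 19964 genes, with a threshold of 0.05. CPM are scaled by library total and TMM factor. Standard errors are the log2 fold change divided by the root of F. Depth was 22024900 to 34864200 counts per library, and 3 counts were taken as the floor, which covers counting error only. The fit was tested on simulated data. The members and lists were chosen with earlier results of these data known.

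Always named were the HSP90 genes, the main HSP70 genes, *Hsph1*, *Hspd1*, *Hspe1* and every *Cct* member. In each compartment comparison the 10 largest changes in each direction among called members with a mean of at least 10 CPM were added, in each genotype comparison the 3 smallest p and any unadjusted p under 0.05, and for the 44 folding partners the 5 largest calls in each direction and *Tcp1*. The place of each protein was assigned after values were seen. Same-numbered somatodendritic and axonal libraries of a genotype deviated together, with correlations across genes of 0.105 to 0.241 in +/+ and 0.175 to 0.508 in Hnrnpr-/-, each above that with any other number. The labels do not say that a shared number marks 1 culture, so this pairing, here called the culture, was inferred from the correlations. It was fitted as a block as an alternative.

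Other alternatives were RLE factors, no TMM factors, no filter, at least 10 counts, unrounded counts, DESeq2 1.42.0 with and without betaPrior, the groups compared alone, protein-coding genes only, the replicate number as a block, each library left out, a stricter threshold and summed *Hspa1a* and *Hspa1b*. Leaving out 3 axonal libraries that stood apart and adding copies that match by at least 90% were chosen after seeing the data. Copies were found with minimap2 2.31-r1302 and sequences read with samtools 1.23.1 from GRCm39 with GENCODE vM39.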

Additional observations from a re-analysis of the deposited data

Results flagged for a closer look

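Of 196 combinations of a named gene and a group of 4 libraries, 11 held a library whose gap to its nearest neighbour exceeded Dixon's critical value. Chance gives about 5% of combinations, and the number flagged was near that share. In axonal replicate 3, *Hsp90ab1* stood at 2210 CPM in +/+ (next 1677) and at 2512 CPM in Hnrnpr-/- motoneurons (next 1798), *Cct8* at 685 CPM in +/+ (next 590) and *Cct5* at 729 CPM in Hnrnpr-/- (next 575). In Hnrnpr-/- somatodendritic replicate 4, *Hsp90b1* stood at 653 CPM (next 450.0) and *Sdf2l1* at 17.8 CPM (next 7.40). In +/+ somatodendritic replicate 4, *Hsph1* stood at 227 CPM (next 180) and *Dnajc19* at 20.3 CPM (next 16.1), while *Dnajc13* was lowest there at 64.8 CPM (next 80.4). In Hnrnpr-/- somatodendritic replicate 1, *Dnajc5* stood at 1029 CPM (next 779) and *Dnajc18* at 132 CPM (next 118).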

How the results depend on the processing

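Of the values of members and folding partners picked by the naming rule, 0 reversed their direction past the threshold under the alternatives run. The other members entered the counts of calls below, and marker lists and neighbouring genes were not run. Without TMM factors the +/+ median of the members was 0.249, and with 1 library left out it ran from -0.00343 (without +/+ axonal replicate 4) to 0.137. An adjusted p under 0.01 with a log2 fold change of at least 1 left 9 members higher and 10 lower in +/+ axons. The share of all genes at this cut is not given, so these counts have no background. The members past an unadjusted p under 0.05 by genotype in axons numbered 0 with only the groups compared, 0 with the replicate block and 2 without the 3 axonal libraries that stood apart, and ran from 0 to 4 with 1 library left out (4 without Hnrnpr-/- axonal replicate 1). In cell bodies they numbered 1 with only the groups compared and 1 without the 3 libraries, and ran from 0 to 2 (2 without Hnrnpr-/- somatodendritic replicate 1). For the difference of the genotype effect they ran from 0 to 2 (2 without +/+ axonal replicate 3 or Hnrnpr-/- axonal replicate 1). The cause was not tested. Without the 3 axonal libraries, 15 members were higher and 15 lower in +/+ axons (29 of the 34 calls shared), against 25.1% and 26.9% of all genes. In Hnrnpr-/- axons 19 were higher and 17 lower (35 of 37 shared), against 27.2% and 28.6% of all genes. Of the folding partners 16 were then higher and 5 lower in +/+.

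With the culture as a replicate block, 16 members were higher and 16 lower in +/+ axons, against 28.0% and 28.3% of all genes. Beyond the calls named above this block changed no other call. Across genotypes, correlations of same-numbered libraries ran from -0.0458 to 0.677, were over 0.1 in 4 of 8 pairs and were above those with any other number in 3, so that not every pair met the limit of 0.1 and the numbers were not taken to pair the genotypes. The study states that compared conditions shared a batch of cells, without saying that a number marks a batch. With the number as a replicate block 17 members were higher and 17 lower in +/+, against 29.7% and 29.1% of all genes. With 1 library left out, calls of members were lost in 22 of 544 fits in +/+ (7 of 34 called members) and in 38 of 592 in Hnrnpr-/- axons (7 of 37), and 6 and 7 fits gained one. Over the 49 members and folding partners that the naming rule picked in +/+, 776 of 784 values kept their side of the threshold with 1 library left out, 6 lost it and 2 gained it. Under the other alternatives 616 of 638 did, 2 lost it and 20 gained it. Over the 38 members picked in Hnrnpr-/- axons the counts were 586 of 608 (18 lost, 4 gained) and 482 of 495 (6 lost, 7 gained). A depth of at least 22024900 counts per library left 7 members too low to test.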
